A study of Mus musculus with 8 samples.

Results

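The genes described here encode the working parts of the lysosome in mouse lung: acid hydrolases, membrane proteins, luminal proteins without enzyme activity, the subunits of the proton pump, and Tfeb. Members were listed by gene symbol, and the list was made with earlier results of these data known. Of 37 members, 35 were represented by a probe set with that symbol alone, among 13854 genes tested, and all 35 passed the filter on low signal. They comprise 15 of 16 listed pump subunits and 20 of 21 other members, while Cd63 and Atp6v0c were not analysed here. The members had 83 probe sets, 75 of which passed the filter, and each gene is given by its brightest (highest mean signal across the 8 arrays).

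The lysosome is the acidic compartment in which cells break down proteins, lipids, glycans and material taken up from outside. Its acidity comes from the V-ATPase, a rotary pump in which the cytosolic V1 sector splits ATP and the membrane V0 sector carries protons. Hydrolases need that acidity, membrane proteins such as the LAMPs shield the lipid bilayer, and TFEB is a transcription factor of many of these genes that binds E-box elements near their starts. In lung, alveolar macrophages are rich in lysosomes and take up inhaled particles.

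RNA came from lobe 1 of the right lung, taken from ICR mice (outbred males, 5 to 6 weeks old). Every mouse was instilled once through the trachea with the surfactant Pluronic F-68 (PF68, 0.1% in 50 µl) under pentobarbital anaesthesia. The groups, with 2 arrays each, were 0.5 mg of single-walled carbon nanotubes (SWCNT) in PF68 at day 1, PF68 alone at day 1, SWCNT in PF68 at day 7 and PF68 alone at day 7. The study asked which lung transcripts respond to the nanotubes in the acute phase (day 1) and the sub-chronic phase (day 7). Arrays of 1 group are labelled as biological replicates, but no animal is named, so the spread behind the p-values is that between these arrays and may be technical.

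All arrays had the same sorted values, with a median of -0.628 on a scale read as log2, so a difference is relative to a common distribution. Lung identity was clear: the mean signal of 8 alveolar type 2 markers lay between 6.00 and 6.26 on every array. Correlations across probe sets (a description) were 0.915 to 0.941 within groups and 0.891 to 0.931 between them. For beta-actin, the signal at the 3′ end less that at the 5′ end, which is larger in shortened RNA, was 1.34 ± 0.03 in SWCNT day 1, 2.02 ± 0.02 in PF68 day 1, 2.97 ± 0.04 in SWCNT day 7 and 3.27 ± 0.03 in PF68 day 7 (mean ± SD, n = 2). The skeletal muscle markers stood apart in the SWCNT day 1 arrays, at a mean of 3.44 to 3.48 against -0.82 to -0.70 in PF68 day 1. When the arrays were scaled to the bacterial hybridization spikes instead, the median of all genes was 0.55 for SWCNT minus PF68 on day 7 in place of 0.02, and -0.24 on day 1 in place of -0.02. All values below are on the deposited scale unless said otherwise.

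On day 7 the pump subunit Atp6v0d2 and prosaposin (Psap) were higher in SWCNT lungs, the lysosomal cation channel Mcoln1 was lower, and most other lysosomal genes lay slightly above PF68 without passing the test. Of 35 members, 2 were higher, 1 was lower and 32 were not called at an adjusted p of 0.05 (limma with Benjamini-Hochberg adjustment over all genes). That is 8.57% of the members, where 2.18% of all genes were called (1.40% higher, 0.780% lower). The median difference was 0.15 in log2 (0.02 over all genes), and 25 of 35 members lay above 0. The SWCNT and PF68 arrays of that day did not overlap for 20 members with SWCNT above and 6 with SWCNT below, or 74.3% of members against 53.2% of all genes (28.2% above, 25% below). The members gave bright signals (median at the 91.3rd percentile of the genes tested, 32 of 35 above the 50th), and genes of other brightness are among those they are set against. In whole lung, fewer cells of a type and less RNA per cell cannot be told apart.

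Among the V0 subunits, Atp6v0d2 encodes the d2 isoform, which macrophages and osteoclasts use in place of the widely expressed d1. It read 3.18 and 3.47 on the SWCNT arrays of day 7, against 2.19 and 2.25 on the PF68 arrays. Both SWCNT arrays of day 7 lay above all 6 other arrays, whose signals were 2.19 to 2.81. The difference was 1.11 ± 0.13 (log2 difference ± SE, n = 2 arrays per group), or 2.16-fold (limma, adjusted p = 0.0305). The gene's other passing probe set differed by 0.38, with overlap: it read 2.94 and 2.79 in SWCNT, against 2.11 and 2.86 in PF68. It was not called when probe sets were fitted one by one (limma, adjusted p = 0.45). Atp6v0d1, which encodes the d1 isoform, read 4.12 and 4.24 in SWCNT, against 3.81 and 3.94 in PF68. Its groups did not overlap, and the difference of 0.30 ± 0.11 was not called (limma, adjusted p = 0.184).

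Psap is the precursor of the saposins, small proteins that help hydrolases degrade sphingolipids. Its signals on day 7 were 6.14 and 6.17 in SWCNT lungs, against 5.30 and 5.46 in PF68 lungs. The SWCNT arrays were the higher and did not overlap with PF68, and the difference was 0.77 ± 0.12, or 1.71-fold (limma, adjusted p = 0.0455). The other probe set of Psap read 4.16 and 4.24 in SWCNT, against 3.38 and 3.21 in PF68, a difference of 0.90.

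Mcoln1 encodes TRPML1, the channel through which lysosomes release calcium. It read 1.84 and 1.84 in SWCNT on day 7, against 2.67 and 2.65 in PF68. The PF68 arrays of day 7 were above all 6 others, which lay between 1.51 and 1.92, so that the SWCNT value of day 7 was within the range of the day 1 arrays. The gene was lower by 0.82 log2 units in SWCNT (-0.82 ± 0.11, limma, adjusted p = 0.0353). A dimmer probe set of the gene read -0.36 and 0.09 in SWCNT, against 0.81 and 0.60 in PF68, a difference of -0.84.

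These 3 calls were close to the threshold. When any 1 of the 8 arrays was left out none of the 3 was called, with adjusted p between 0.0768 and 0.188 (limma), while the differences kept their sign, at 0.96 to 1.26 for Atp6v0d2, 0.69 to 0.86 for Psap and -0.83 to -0.81 for Mcoln1. Scaled to the spikes, 26 members were higher and none lower on day 7, where 5893 of all 13854 genes were called. By that scaling 34 of 35 members lay above 0, with a median of 0.67 (0.55 over all genes), and Mcoln1 was at -0.29.

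**Figure D1:**
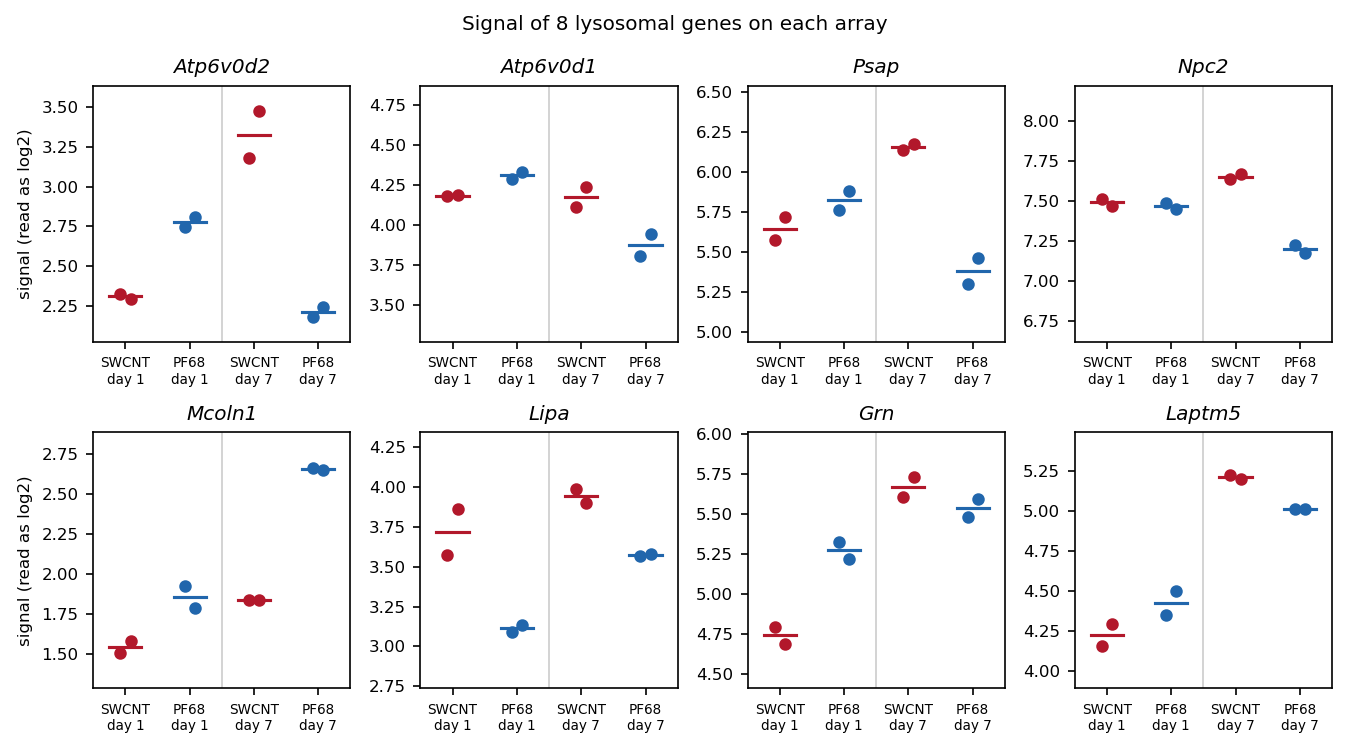
Signal of 8 lysosomal genes on each array (vertical axis, values read as log2; each panel has its own range). Points are single arrays and bars are group means of 2 arrays, SWCNT in red and PF68 in blue. Atp6v0d2 and Psap are highest in the SWCNT arrays of day 7, and Mcoln1 is highest in the PF68 arrays of day 7.

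Of the 3 members called on day 7, Atp6v0d2 had no promoter window here, and the promoters of Mcoln1 and Psap are printed. Their promoters differ in the E-box core CACGTG, to which TFEB and related factors bind. Those of Lamp1 and Atp6v0b were added after the motif search was seen, as members with several copies whose expression was not called on day 7. Sequences are from RefSeq (GRCm38.p6), run 5′ to 3′ along the gene from 250 bases before its annotated start to 50 bases after it, and capitals mark CACGTG. The Mcoln1 window is chr8:3500269-3500568 on the plus strand, that of Psap is chr10:60277378-60277677 (plus, 1 of its 2 windows), that of Lamp1 is chr8:13158911-13159210 (plus) and that of Atp6v0b is chr4:117887280-117887579 (minus).
Mcoln1: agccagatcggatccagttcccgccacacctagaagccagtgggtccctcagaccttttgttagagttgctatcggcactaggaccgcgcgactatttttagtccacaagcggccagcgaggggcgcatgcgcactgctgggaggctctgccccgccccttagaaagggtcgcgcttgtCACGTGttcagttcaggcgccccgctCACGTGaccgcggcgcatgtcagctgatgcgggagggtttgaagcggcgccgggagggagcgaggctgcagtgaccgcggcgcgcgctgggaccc
Psap: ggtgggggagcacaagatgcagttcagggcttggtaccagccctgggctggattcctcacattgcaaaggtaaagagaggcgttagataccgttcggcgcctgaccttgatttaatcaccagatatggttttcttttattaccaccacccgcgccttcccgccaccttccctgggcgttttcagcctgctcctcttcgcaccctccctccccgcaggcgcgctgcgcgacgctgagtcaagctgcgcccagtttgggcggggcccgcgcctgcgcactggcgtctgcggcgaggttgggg
Lamp1: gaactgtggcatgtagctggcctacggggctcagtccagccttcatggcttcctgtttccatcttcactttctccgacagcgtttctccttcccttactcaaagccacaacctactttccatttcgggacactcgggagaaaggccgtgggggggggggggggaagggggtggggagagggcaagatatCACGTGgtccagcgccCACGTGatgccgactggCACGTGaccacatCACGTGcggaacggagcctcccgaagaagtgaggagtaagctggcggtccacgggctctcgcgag
Atp6v0b: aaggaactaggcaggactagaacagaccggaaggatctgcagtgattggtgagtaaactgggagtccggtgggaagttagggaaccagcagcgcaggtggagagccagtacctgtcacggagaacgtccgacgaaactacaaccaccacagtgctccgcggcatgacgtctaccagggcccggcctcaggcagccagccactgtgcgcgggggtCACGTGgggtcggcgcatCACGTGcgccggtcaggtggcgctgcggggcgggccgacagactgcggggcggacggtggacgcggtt
The motif is a palindrome and so reads the same on both strands.

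Mcoln1 has 2 copies of the core, Psap none in either window, Lamp1 4 and Atp6v0b 2. The sequence table held a window for 31 of the 37 members, 39 windows in all. CACGTG was present in 10 of these 31 members (32.3%), against 8.09% of 27025 genes with a window. At least 2 copies were found in 4 members (12.9%), against 0.681% of all genes: Ctsa, Atp6v0b, Mcoln1 and Lamp1. All 10 also held the longer TCACGTG on either strand, which overlaps the core, against 4.29% of all genes. By class, 4 of 11 pump subunits and 6 of 20 other members held the core. The 10 members with the core ran from -0.82 (Mcoln1) to 0.55 (Ctsa) on day 7, with a median of 0.04 and 5 above 0. The 19 measured members with a window and no core had a median of 0.15 (-0.25 to 0.77), 15 of them above 0. A match describes the letters of the window only.

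**Figure D2:**
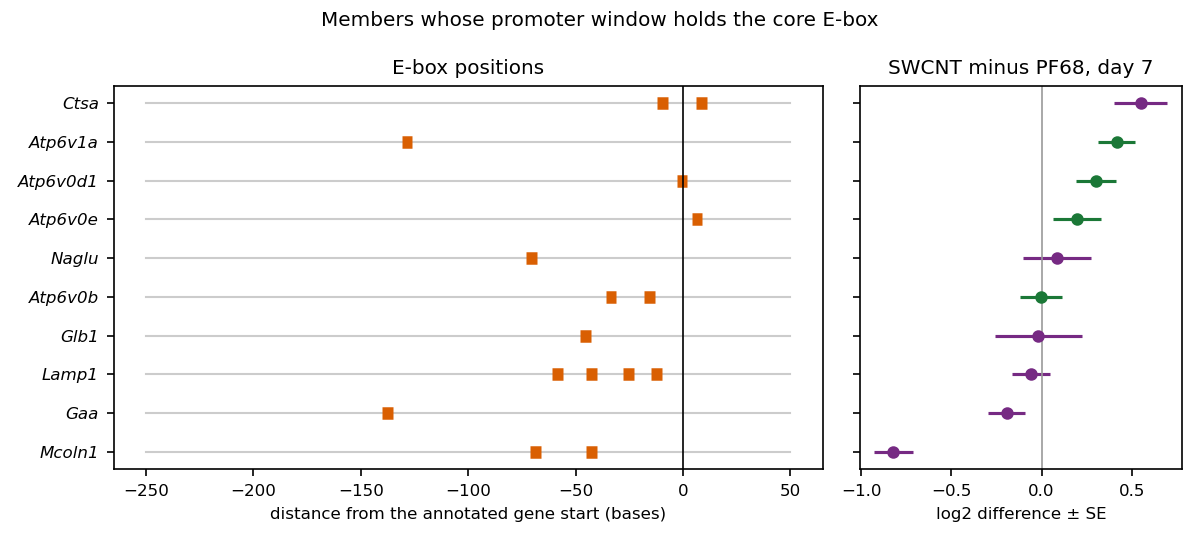
Left, the position of each CACGTG copy (orange blocks) along the window from 250 bases before to 50 bases after the annotated start, for the 10 members that hold it. Right, the log2 difference ± SE (n = 2 arrays per group) of SWCNT minus PF68 on day 7 for the same genes, from 0.55 in Ctsa to -0.82 in Mcoln1, pump subunits in green and others in purple.

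The other pump subunits had smaller differences on day 7. V0 had 1 of 5 measured subunits called, with a median of 0.20, and V1, the ATP-splitting sector, had none of 8, with a median of 0.21 and a range of -0.19 to 0.42. Atp6v1a, the catalytic subunit, read 3.95 and 4.01 in SWCNT, against 3.56 and 3.57 in PF68. Its groups did not overlap and the difference was 0.42 ± 0.10, not called (limma, adjusted p = 0.0914). Atp6v1h, a regulatory subunit, read 3.39 and 3.23 in SWCNT, against 2.89 and 3.04 in PF68, a difference of 0.35 ± 0.12 (adjusted p = 0.176). For Atp6v0a1, an a subunit of the proton channel, the SWCNT signals of 1.88 and 1.81 overlapped with 1.85 and 1.79 in PF68. The accessory proteins were not called. Atp6ap1, needed to assemble the pump, read 4.05 and 4.13 in SWCNT, against 4.39 and 4.24 in PF68 (-0.23 ± 0.11), and Atp6ap2, also known as the prorenin receptor, read 5.33 and 5.35 in SWCNT, against 5.51 and 5.05 in PF68.

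None of the 11 hydrolases was called on day 7, although 9 lay above 0, with a median of 0.16. Ctsa, the protective protein of neuraminidase and beta-galactosidase, read 4.26 and 4.38 in SWCNT, against 3.70 and 3.84 in PF68. The arrays did not overlap, and the difference was 0.55 ± 0.15 (limma, adjusted p = 0.106). Acp2, a lysosomal acid phosphatase, read 1.53 and 1.35 in SWCNT, against 1.26 and 0.47 in PF68. The PF68 arrays were far apart, and the difference was 0.57 ± 0.28 (adjusted p = 0.288). Lipa, the acid lipase that splits cholesterol esters, read 3.99 and 3.90 in SWCNT, against 3.56 and 3.58 in PF68, a difference of 0.37 ± 0.13 (adjusted p = 0.174). The SWCNT arrays were the higher, but 1 of the gene's other probe sets lay at -0.13 and another at 0.69. Gaa, which degrades glycogen, read 2.90 and 2.98 in SWCNT, against 3.11 and 3.16 in PF68 (-0.19 ± 0.10), or 0.33 when scaled to the spikes.

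Npc2, which carries cholesterol out of the lumen, read 7.64 and 7.66 in SWCNT on day 7, against 7.22 and 7.17 in PF68. Its SWCNT arrays were above the PF68 arrays of both days, and the difference was 0.45 ± 0.10 (limma, adjusted p = 0.0742). Grn, the precursor of the granulins, read 5.60 and 5.73 in SWCNT, against 5.48 and 5.59 in PF68, groups close together (0.13 ± 0.12). Apart from Mcoln1, no membrane protein was called. Laptm5, a membrane protein of blood cells, read 5.23 and 5.20 in SWCNT, against 5.01 and 5.01 in PF68, a difference of 0.20 ± 0.11. Lamp2, a major glycoprotein of the membrane, read 5.56 and 5.41 in SWCNT, against 5.58 and 5.87 in PF68, and Lamp1 differed by -0.06. Tfeb itself was not called: its signals of 1.37 and 1.38 in SWCNT lay between 1.17 and 1.70 in PF68, a difference of -0.05 ± 0.32.

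**Figure D3:**
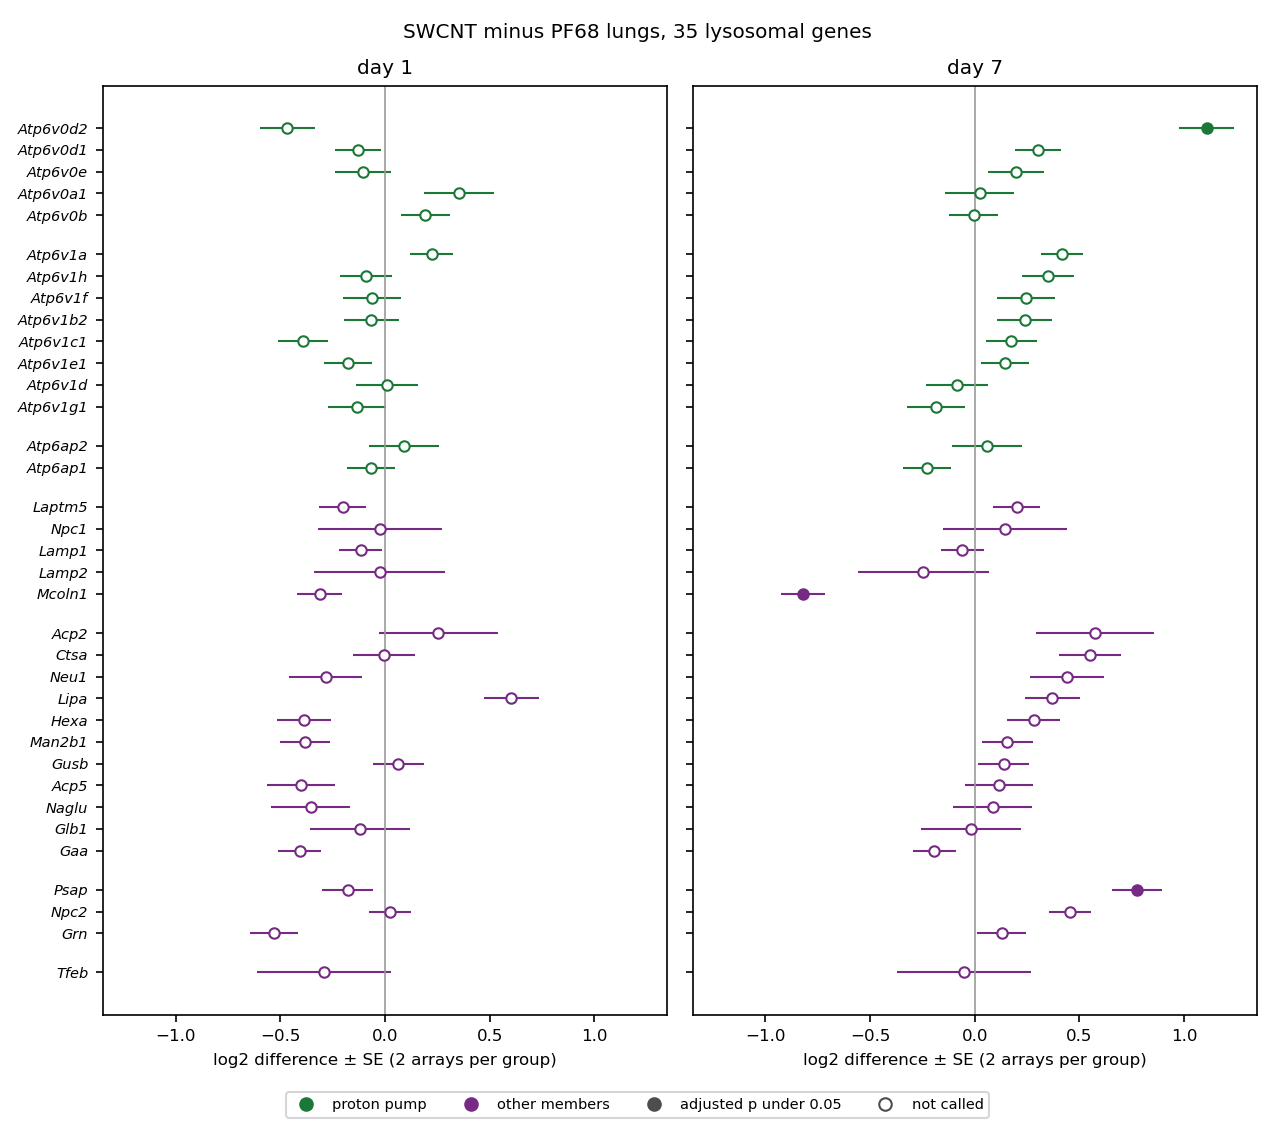
Log2 difference of SWCNT minus PF68 (horizontal axis) for the 35 measured members on day 1 (left) and day 7 (right), grouped by role; points are differences of means of 2 arrays per group and bars the SE. Filled points are called at an adjusted p under 0.05: none on day 1, and Atp6v0d2, Psap and Mcoln1 on day 7.

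On day 1 no member was called in limma, where 2.17% of all genes were (0.931% higher, 1.23% lower), 9 had an unadjusted p under 0.05 (18.6% of all genes), and 26 of 35 members lay below 0. The median was -0.12 (-0.02 over all genes). SWCNT and PF68 arrays did not overlap for 20 members, 5 with SWCNT above and 15 with SWCNT below, which is 57.1% of the members against 53.2% of all genes (24.6% above, 28.6% below). Scaled to the spikes, 4 members were lower and none higher on day 1, where 737 of all 13854 genes were called. By that scaling 4 of 35 members lay above 0.

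The median difference of the pump subunits on day 1 was small, at -0.07, with a range of -0.47 to 0.35. For Atp6v0d2 the SWCNT signals were 2.33 and 2.30, against 2.75 and 2.81 in PF68, SWCNT being lower without overlap (-0.47 ± 0.13, limma, adjusted p = 0.152). Atp6v0d1 read 4.18 and 4.19 in SWCNT, against 4.29 and 4.33 in PF68 (-0.13 ± 0.11). Atp6v1c1, which joins the stalk to the membrane sector, read 3.51 and 3.63 in SWCNT, against 3.86 and 4.05 in PF68 (-0.39 ± 0.12, adjusted p = 0.172). Over the pump, 4 subunits lay below and 4 above PF68 without overlap (53.3%, close to the 53.2% of all genes), and none was called. Atp6v0a1 read 2.23 and 2.42 in SWCNT, against 1.76 and 2.18 in PF68 (0.35 ± 0.17, adjusted p = 0.332). Atp6v1a read 3.93 and 3.93 in SWCNT, against 3.76 and 3.66 in PF68 (0.22 ± 0.10). Atp6v1h overlapped, with 2.85 and 2.90 in SWCNT, against 3.04 and 2.89 in PF68. The accessory proteins differed by -0.07 (Atp6ap1, 4.11 and 4.23 in SWCNT, against 4.21 and 4.26 in PF68) and 0.09 (Atp6ap2, 5.10 and 5.09 in SWCNT, against 5.05 and 4.96 in PF68).

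Among the hydrolases on day 1, Lipa read 3.57 and 3.86 in SWCNT, against 3.09 and 3.14 in PF68. It was the member furthest above 0 of the 35, at 0.60 ± 0.13, and was not called (limma, adjusted p = 0.0916). Its other probe sets differed by 0.18 and 0.64. Gaa read 1.97 and 2.05 in SWCNT, against 2.42 and 2.41 in PF68 (-0.41 ± 0.10, adjusted p = 0.124). Ctsa overlapped, at 3.97 and 3.86 in SWCNT, against 3.76 and 4.08 in PF68, as did Acp2, at 1.44 and 1.83 in SWCNT, against 1.44 and 1.32 in PF68. Over the 11 hydrolases the median was -0.28, with 3 above 0.

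Grn was the member furthest below 0 on day 1, with 4.79 and 4.69 in SWCNT, against 5.33 and 5.22 in PF68 (-0.53 ± 0.12, limma, adjusted p = 0.0916). Psap read 5.57 and 5.72 in SWCNT, against 5.76 and 5.88 in PF68 (-0.18 ± 0.12). Npc2 overlapped, at 7.51 and 7.47 in SWCNT, against 7.48 and 7.45 in PF68. All 5 measured membrane proteins lay below 0, none of them called. Mcoln1 read 1.51 and 1.58 in SWCNT, against 1.92 and 1.79 in PF68 (-0.31 ± 0.11, adjusted p = 0.203). Laptm5 read 4.15 and 4.29 in SWCNT, against 4.35 and 4.50 in PF68. Lamp2 read 4.67 and 4.65 in SWCNT, within the 5.17 and 4.21 of PF68, and Tfeb read 0.73 and 0.68 in SWCNT, within the 1.45 and 0.55 of PF68. Both genes had PF68 arrays nearly 1 log2 unit apart.

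The difference between the days was tested as the SWCNT effect of day 7 minus that of day 1. Atp6v0d2 was the only member called, where 2.34% of all genes were (1.41% with a larger effect on day 7), so that the 2.86% of members called is near the background. Its SWCNT effect was larger on day 7 by 1.57 ± 0.19 (limma, adjusted p = 0.027), a call lost when any 1 of the 8 arrays was left out. Psap followed at 0.95 ± 0.17 (adjusted p = 0.0539). Mcoln1 was at -0.51 ± 0.15 (adjusted p = 0.14), so its effect was not shown to differ between the days. Of the 35 members, 26 lay above 0, with a median of 0.31 against 0.05 over all genes.

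Pump subunits were set against the hydrolases, luminal and membrane proteins. On day 7 the median was 0.18 for the 15 pump subunits (11 above 0) and 0.14 for the 20 others (14 above 0), a gap of 0.03. On day 1 the medians were -0.07 (5 above 0) and -0.19 (4 above 0), a gap of 0.13. These medians were -0.28 and -0.41 on day 1 and 0.70 and 0.67 on day 7 when scaled to the spikes. The mean signal of the pump subunits minus that of the others, which a shift of all genes leaves as it is, was 0.762 and 0.758 on the SWCNT arrays of day 1, against 0.624 and 0.697 in PF68. On day 7 it was 0.700 and 0.727 in SWCNT, against 0.672 and 0.690 in PF68. It was thus higher in SWCNT on both days without overlap, but on day 7 this rested on Atp6v0d2. Without that gene, a choice made after seeing the data, it was 0.774 and 0.782 in SWCNT on day 7, against 0.806 and 0.818 in PF68, lower in SWCNT. On day 1 it was then 0.870 and 0.871 in SWCNT, against 0.707 and 0.776 in PF68. No test was made, since the members were chosen with results of these data known.

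Day 7 was also set against day 1 within each treatment. In SWCNT lungs 11 members were higher on day 7 and none lower (31.4%, against 16.3% of all genes, 9.59% higher and 6.70% lower). The arrays of the 2 days did not overlap for 29 members with day 7 above and 2 with day 7 below (88.6%, against 62.8% of all genes, 36.6% above and 26.2% below), and the median was 0.34 (0.09 over all genes). In PF68 lungs 8 were higher and 2 lower (28.6%, against 17.7% of all genes, 8.86% in each direction), with a median of 0.08 (0.04). There the arrays did not overlap for 15 members above and 10 below (71.4%, against 61.1% of all genes, 32.5% above and 28.6% below). These comparisons share arrays with those between the treatments.

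Hexa, the alpha subunit of beta-hexosaminidase, read 4.42 and 4.39 in SWCNT lungs on day 7, against 3.15 and 2.87 on day 1. Both day 7 arrays were far above day 1, by 1.39 ± 0.13 (limma, adjusted p = 0.00622). In PF68 lungs it read 4.12 and 4.12 on day 7, against 3.37 and 3.43 on day 1, a rise of 0.73 ± 0.13 (adjusted p = 0.0187). Laptm5, Gaa, Gusb (beta-glucuronidase), Atp6v0b, Atp6v1c1 and Atp6v1d were also higher on day 7 in both treatments. In SWCNT their differences in the brightest probe set were 0.99, 0.93, 0.55, 0.71, 1.07 and 0.81, and in PF68 0.59, 0.72, 0.48, 0.90, 0.50 and 0.90, in that order. Of these genes, Gusb, Atp6v1d and Atp6v1c1 had a further probe set on the other side of 0 in PF68, at -0.99, -0.47 and -0.33. So did Laptm5 in both treatments (-1.13 in SWCNT, -0.08 in PF68). When probe sets were fitted one by one, that of Gusb was called lower in PF68 (limma, adjusted p = 0.0175). The brightest probe set of Gusb was then not called in PF68 (limma, adjusted p = 0.0646). Grn was higher on day 7 in SWCNT (0.93 ± 0.12, adjusted p = 0.00888) and was at 0.27 ± 0.12 in PF68 (adjusted p = 0.17). The difference between these was not called (0.66 ± 0.16, adjusted p = 0.102), and 1 of the gene's other probe sets lay at -0.20 in SWCNT and -0.52 in PF68. Atp6v1e1 was higher in SWCNT by 0.70, with other probe sets at -0.91 and 1.58.

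In its brightest probe set, Atp6v0d2 was higher on day 7 in SWCNT (1.01 ± 0.13, limma, adjusted p = 0.00976) and lower in PF68 (-0.56 ± 0.13, adjusted p = 0.0382). Its other probe set lay above 0 in both, at 0.68 in SWCNT and 0.19 in PF68. The PF68 call was lost with no filter, with array weights, with a replicate block and with the mean of probe sets. Fitting probe sets one by one also lost it (limma, adjusted p = 0.0512). So did leaving out any 1 array of PF68 or of SWCNT day 1. Psap was higher on day 7 in SWCNT (0.51 ± 0.12, adjusted p = 0.0413) and at -0.44 ± 0.12 in PF68 (adjusted p = 0.0583). Its other probe set lay at -0.55 in SWCNT and -1.51 in PF68. When probe sets were fitted one by one, that other probe set was called lower in both (limma, adjusted p = 0.0409 and 0.00832). The brightest probe set of Psap was then called in neither (limma, adjusted p = 0.0566 in SWCNT and 0.0777 in PF68). Mcoln1 was higher on day 7 in PF68 (0.80 ± 0.11, adjusted p = 0.0109), against 0.29 ± 0.11 in SWCNT (adjusted p = 0.117). The other passing probe set of Mcoln1 lay at 0.42 in PF68 and on the other side of 0 in SWCNT, at -0.58. Atp6v0d1 was lower on day 7 in PF68 (-0.43 ± 0.11, adjusted p = 0.0475), against -0.01 ± 0.11 in SWCNT. That PF68 call was also lost with no filter, the mean of probe sets, probe sets without a suffix, array weights and a replicate block. It was lost as well when probe sets were fitted one by one (limma, adjusted p = 0.0666).

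The time comparisons go with a shift in RNA quality. The beta-actin end difference was 1.63 higher on day 7 than on day 1 in SWCNT and 1.25 higher in PF68. Cell markers shifted as well. Of 6 fibroblast markers, 4 were lower on day 7 in SWCNT and 5 in PF68. In SWCNT all 8 tested skeletal muscle markers were lower (median -4), as were 7 of 10 neutrophil markers. Of 13 macrophage markers there, 5 were higher and 2 lower. In PF68, 1 of 8 muscle, 1 of 10 neutrophil and 2 of 13 macrophage markers were called, all lower. The time comparisons were not tested for the part of RNA quality or of these markers in them. They also rest on single arrays: leaving out either PF68 array of day 1 left no member called in PF68, and leaving out an array of another group left 5 or 6. In SWCNT, 5 and 4 stayed without SWCNT day 1 replicates 1 and 2, 2 and 0 without SWCNT day 7 replicates 1 and 2, and 10 to 12 without a PF68 array. Scaled to the spikes, no member was higher and 19 were lower on day 7 in PF68, where 5928 of all 13854 genes were called. In SWCNT 14 members were then higher, where 2820 of all genes were called.

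**Figure D4:**
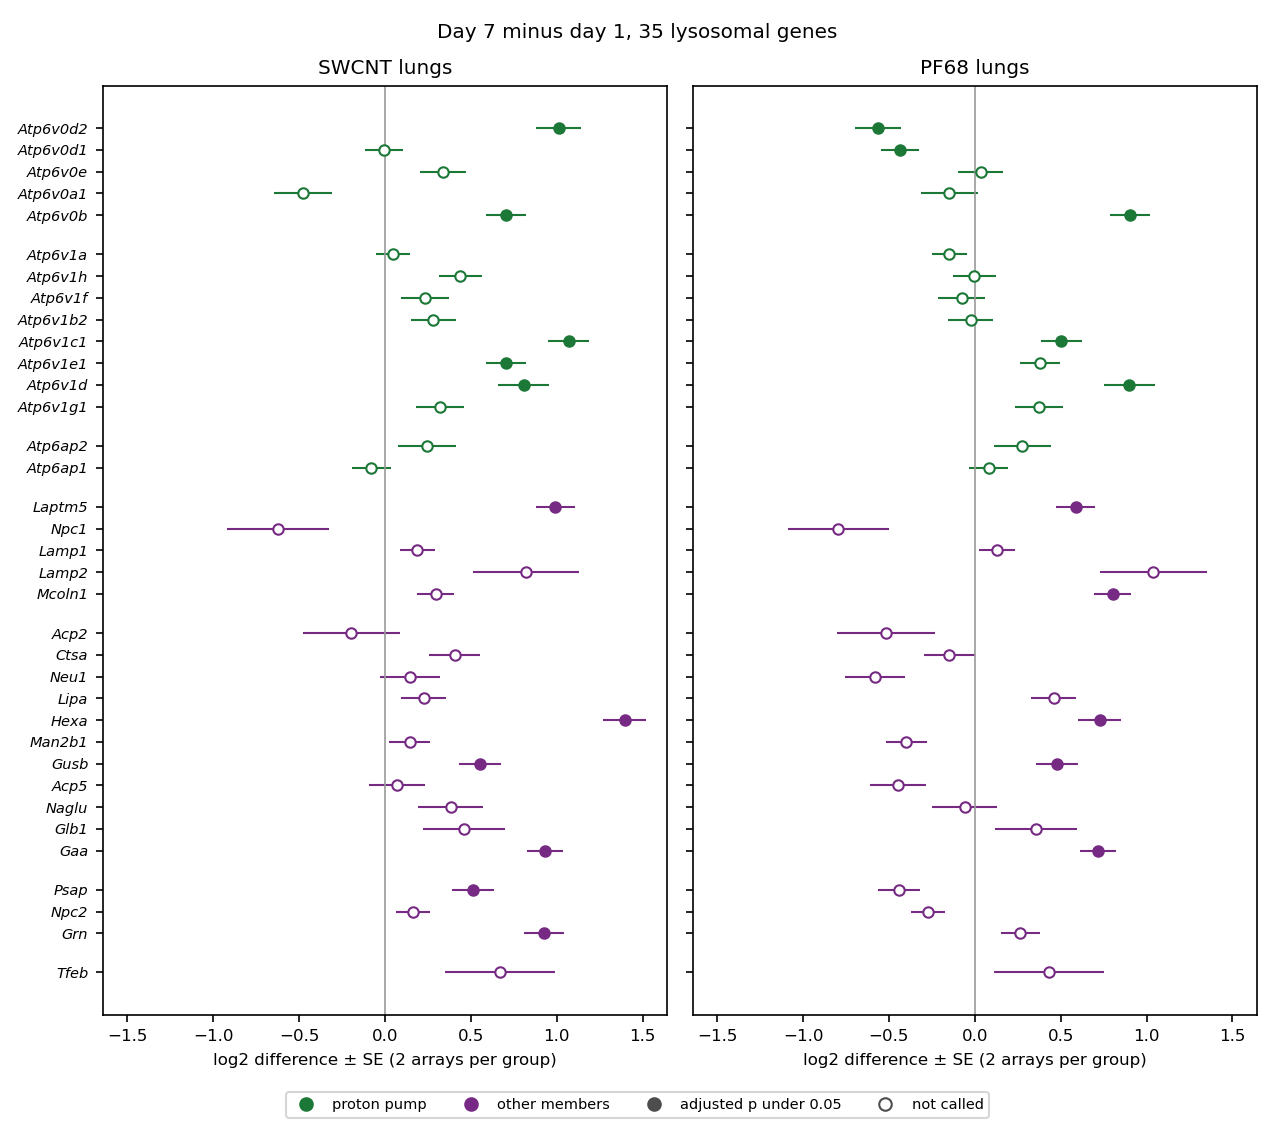
Log2 difference of day 7 minus day 1 (horizontal axis) for the 35 measured members in SWCNT lungs (left) and PF68 lungs (right), grouped by role; points are differences of means of 2 arrays per group and bars the SE. Filled points are called at an adjusted p under 0.05, 11 in SWCNT and 10 in PF68, with the brightest probe set of Atp6v0d2 on opposite sides of 0.

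Different probe sets of 1 gene often disagreed. Of 23 members with more than 1 passing probe set, 11 had at least 1 with the opposite sign to the gene's chosen probe set on day 7, and as many on day 1 and in each time comparison. Gusb differed by 0.14 on day 7 in its brightest probe set, whereas its other read 0.34 and 0.46 in SWCNT, against -0.84 and -0.75 in PF68. That gap of 1.19 was called when all probe sets were fitted one by one (limma, adjusted p = 0.0497). Laptm5 had probe sets called in both directions in SWCNT on day 7 against day 1, from -1.13 to 1.35. Lamp2 had 3 further probe sets at 0.05, 0.28 and 0.72 on day 7, against -0.25 in its brightest. Over the 75 passing probe sets of the members, 2 were called on day 7, those of Gusb and Atp6v0d2, and 0 on day 1 (0.614% and 0.862% of 23308 probe sets). Psap and Mcoln1 were not among them.

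**Figure D5:**
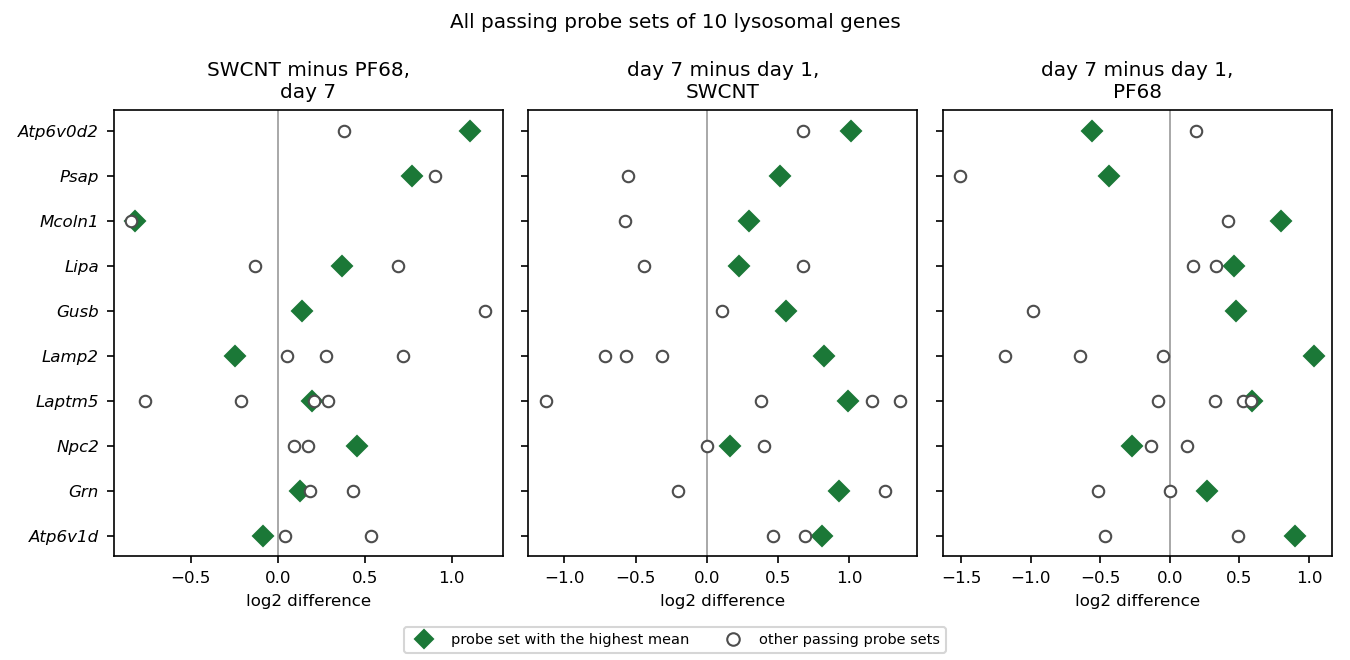
Log2 differences of every passing probe set of 10 members for SWCNT minus PF68 on day 7 (left) and day 7 minus day 1 in SWCNT (middle) and PF68 (right). Green diamonds are the brightest probe set of each gene and open circles the others; on day 7 the probe sets of Atp6v0d2, Psap and Mcoln1 share a sign, those of Lipa, Lamp2, Laptm5 and Atp6v1d do not.

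Other genes of the pathway were counted from 4 lists, 69 of 78 of them tested. On day 7, 2 were higher and none lower, with a median of 0.12 and 50 of 69 above 0, and on day 1 none was higher and 1 lower, with a median of -0.02. These are 2.90% and 1.45% of the list, near the 2.18% and 2.17% of all genes called on those days. Cd68, a lysosomal membrane protein of macrophages, read 4.24 and 4.26 in SWCNT on day 7, against 2.68 and 2.59 in PF68. It was higher by 1.61 ± 0.10 (limma, adjusted p = 0.00927), without overlap, and on day 1 it was at -0.41 ± 0.10, not called. Rragd, a GTPase that recruits mTORC1 to the lysosome, read 0.83 and 0.91 in SWCNT on day 7, against -0.62 and -0.09 in PF68 (1.22 ± 0.20, adjusted p = 0.0484). Lamtor1, which anchors the Ragulator complex, was lower on day 1, with 3.87 and 3.82 in SWCNT, against 4.52 and 4.48 in PF68 (-0.66 ± 0.10, adjusted p = 0.0417).

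The other pathway genes furthest from 0 in each list were not called on the day for which they are given here. Of 5 other pump subunits, Atp6v1e2 (0.71 ± 0.92) and Atp6v1c2 (0.56 ± 0.21) were furthest from 0 on day 7, and Tcirg1, the a3 subunit (-0.48 ± 0.23), and Atp6v0e2 (0.24 ± 0.18) on day 1. Of 25 other hydrolases, Galc and Gla, which split galactolipids, lay at 1.18 ± 0.26 (limma, adjusted p = 0.076) and 0.90 ± 0.18 (adjusted p = 0.0636) on day 7, and Dnase2a, an acid DNase, and Prcp, a carboxypeptidase, at -0.77 ± 0.28 and -0.75 ± 0.24 on day 1. Of 20 other membrane proteins, the channel Tpcn2 was next to Cd68 on day 7 at 1.28 ± 0.58. On day 1 the metal transporter Slc11a1 was at 0.91 ± 0.24 and the peptide transporter Slc15a3 at -0.77 ± 0.13 (adjusted p = 0.0562). Of 19 regulators and sorting genes, Tfec, a relative of Tfeb, was at 1.46 ± 0.32 on day 7 (adjusted p = 0.0759), and Rragd at 0.65 ± 0.20 on day 1.

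Markers of immune cells and of fibroblasts moved with some of these results. The mean signal of 13 macrophage markers was 2.81 to 2.89 in SWCNT on day 7, against 2.45 to 2.53 in PF68, without overlap. Only Cd68 among the 13 was called, 10 of 13 lay above 0 and the median was 0.28. On day 1 the same mean was 2.53 to 2.63 in SWCNT, against 2.65 to 2.67 in PF68, with 9 of 13 below 0. The 1 macrophage marker called on day 1, the lipid carrier Fabp4, went the other way and was higher by 1.64 ± 0.12 (limma, adjusted p = 0.00548). Of 8 osteoclast-type markers, 4 passed the filter, and Calcr, Ocstamp, Dcstamp and Oscar lay below it. The mean of the 4, which include the member Acp5, was 2.01 to 2.11 in SWCNT on day 7, against 1.36 to 1.38 in PF68, with a median difference of 0.14. Ctsk, the collagen-cleaving cathepsin, was higher by 3.39 ± 0.15 (limma, adjusted p = 0.00419), while the gelatinase Mmp9, also in the neutrophil list, was lower (-0.91 ± 0.12, adjusted p = 0.0353). The 10 neutrophil markers averaged 1.51 to 1.64 in SWCNT on day 7, against 2.45 to 2.50 in PF68, with 5 lower and 1 higher. The 7 monocyte markers averaged 1.59 to 1.65 in SWCNT on day 1, against 2.34 to 2.55 in PF68. The 6 fibroblast markers averaged 2.89 to 2.95 in SWCNT on day 7, against 2.44 to 2.57 in PF68, with 3 higher, and 3.86 to 3.92 in SWCNT on day 1, against 3.43 to 3.46 in PF68, with 2 higher. The part of these cell types, and of the muscle transcripts in the SWCNT arrays of day 1, in the lysosomal differences was not tested. RNA quality also differed between the treatments. The beta-actin end difference was 1.34 in SWCNT against 2.02 in PF68 on day 1, and 2.97 against 3.27 on day 7. Its part in the differences between the treatments was not tested either.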

How the data were processed

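Total RNA of right lung lobe 1 was extracted with Trizol, labelled with biotin and hybridized to Affymetrix arrays, per the labels' protocols. The authors deposited 1 table of 45101 probe sets and 8 arrays, whose log2 signals were made with RMA, per the submitters' processing notes, which give no version or settings. No source used here states the log base or an offset; values are read as log2. The hybridization spikes rose by 0.772, 0.825 and 0.68 units per doubling, so log2 differences may be off by a common factor, which leaves tests and calls as they are.

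The 64 control probe sets and 8 with missing values were left out. By the platform's annotation, 34945 probe sets had 1 symbol and 932 several. A probe set was kept if 2 or more of the 8 arrays reached their median signal, which left 23308 with 1 symbol for 13854 genes, 1 brightest probe set each. A model of 4 group means was fitted to all arrays in limma (version 3.58.1, R 4.3.3; lmFit, then eBayes; degrees of freedom 4 residual, 1.81 prior), with Benjamini-Hochberg adjustment over all genes and a threshold of 0.05. The ± after a difference is the moderated SE. The number of arrays limits the precision. The procedure was tested on simulated data for SWCNT minus PF68 on day 7. Where 100 genes were given a true difference of 1 in log2, the fit called 7 of them. Where the true difference was 2, it called 55 of 100. Each of these simulations also gave 3 false calls. A member that was not called is therefore not shown to be unchanged. Promoter windows are from RefSeq, and figures were drawn with matplotlib 3.10.9.

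Groups came from the labels. Members named in every array are those called on either day or in the difference between the days, the 2 furthest from 0 per role and day, Atp6v0d1, Atp6v0d2 and Tfeb; other members named were chosen after their values were seen. Other pathway genes named are those called and the 2 furthest from 0 per list and day. Members, lists and tests were chosen with earlier results of these data known. Alternatives covered the filter, the probe set per gene, scaling, the variance model, array weights, a replicate block, fits of 1 day and leaving out each array; fitting every probe set on its own, and class means without Atp6v0d2, were added after seeing the data.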

Additional observations from a re-analysis of the deposited data

Results flagged for a closer look

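The SWCNT effect on Atp6v0d2 differed between the days in the test of that difference: it was larger on day 7 than on day 1 by 1.57 ± 0.19 in log2 (limma, adjusted p = 0.027), with the day 7 SWCNT arrays above and the day 1 SWCNT arrays below their PF68 arrays. Its other probe set differed by 0.38 on day 7 and -0.11 on day 1. For that probe set the difference between the days was not called when probe sets were fitted one by one (limma, adjusted p = 0.533). The effect on Cd68 was also larger on day 7 than on day 1, by 2.02 ± 0.14 (limma, adjusted p = 0.00824). Neither result was weighed against an explanation.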

How the results depend on the processing

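The counts of called members depended on the variance model, the scaling and single arrays. For the variance trend the number of all genes called is not given here. Its higher counts can therefore not be read as particular to the members. For SWCNT minus PF68 on day 1 (0 members called), spike scaling gave 4 and a variance trend with robust fitting 7. On day 7 (3 called), 0 were called with no filter on low values, with a replicate block and in a fit of that day's arrays alone, 1 with the mean of all passing probe sets, with array weights and with every probe set fitted on its own, 8 with the variance trend and 26 with spike scaling; leaving out 1 array gave 0 to 0. Over 19 alternatives Atp6v0d2 was called in 7 (adjusted p from 0.000106 to 0.203), Psap in 5 (5.11e-05 to 0.203) and Mcoln1 in 4 (0.00159 to 0.203), each with its sign kept. For the difference between the days (1 called), no filter, the mean of probe sets and the block gave 0, the stricter filter 2, the variance trend 10 and spike scaling 26, and leaving out 1 array 0 to 0. For PF68 day 7 minus day 1 (10 called), no filter, the mean of probe sets and probe sets without a suffix gave 5 each, array weights, the block and single probe sets 6 each, the stricter filter 16, spike scaling and the variance trend 19 each, and leaving out 1 array 0 to 6. For SWCNT day 7 minus day 1 (11 called), the mean of probe sets gave 7, probe sets without a suffix 5, the variance trend 18 and leaving out 1 array 0 to 12.

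Replicate numbers did not pair the arrays: same-numbered arrays' deviations from their group means correlated by -0.00605 to 0.0114 over the 6 pairs of groups, so the block only removes degrees of freedom, and it left day 1 at 0 and SWCNT day 7 minus day 1 at 10. The pump median moved to -0.284 (day 1) and 0.703 (day 7) with spike scaling, and that of the others to -0.408 and 0.669; leaving out 1 array gave -0.116 to -0.00796 and 0.123 to 0.227 for the pump and -0.255 to -0.168 and 0.126 to 0.209 for the others. The others' day 1 median was -0.126 with the mean of probe sets and -0.124 with probe sets without a suffix.

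Of 722 values of the 19 named members under alternatives, 24 changed sign, none of them called. With the mean of probe sets these were Lamp2 on day 1 (0.185) and day 7 (0.201), Laptm5 on day 7 (-0.0555), Acp2 on day 1 (-0.0197), Npc2 on day 1 (-0.0416) and Atp6v1h on day 7 (-0.149). With probe sets without a suffix they were Lamp2 on day 1 (0.317) and day 7 (0.0512) and Laptm5 on day 7 (-0.213). With spike scaling they were Npc2 (-0.194) and Atp6ap2 (-0.127) on day 1, and Lamp2 (0.283), Gaa (0.334), Tfeb (0.475) and Atp6ap1 (0.3) on day 7. Centring on the median turned Ctsa on day 1 (0.0103). Leaving out 1 array moved Lamp2 on day 1 from -0.504 to 0.451 (above 0 without PF68 day 1 replicate 1), Tfeb on day 1 from -0.739 to 0.156 (the same array) and Ctsa on day 1 from -0.162 to 0.154 (above 0 without PF68 or SWCNT day 1 replicate 2, the second giving 0.0548). On day 7 it moved Tfeb from -0.318 to 0.211, Atp6v0a1 from -0.0127 (without SWCNT day 7 replicate 1) to 0.0578 and Atp6ap2 from -0.171 to 0.287; without PF68 day 7 replicate 2 these were 0.211, -0.00848 and -0.171. The cause of these changes was not tested.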
